A study of Mus musculus with 6 samples.

Results

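The unfolded protein and endoplasmic reticulum (ER) stress response was followed through a list of 36 genes in mouse colonic mucosa. Members were taken by name, as the probes of the array whose single gene symbol was one of the 36. The rule uses no measured value, but the list was drawn up with earlier results of these data known. Of the 17705 genes with a probe, 35 were members, with 55 probes among them, and Dnajb11 had no probe. A member counted as measured where a probe was above background (detection p under 0.01) on at least 1 array, which held for 30 members among the 8950 measured genes. On all 6 arrays 24 members were above background. Calr, Derl1, Dnajc3, Eif2ak3 and Manf were not above background on any array and are not described further.

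The series comprised 6 pools of colonic mucosal RNA, each from 5 FVB/N6 mice aged 8 weeks and each hybridised to 1 Illumina bead array. Wild-type (WT) mice gave an untreated pool, a pool taken on day 2 after an enema of 50% ethanol, and a pool taken on day 2 after an enema of trinitrobenzenesulfonic acid (TNBS, labelled 250 mg) in 50% ethanol, and mice lacking Foxo4 (Foxo4_KO) gave the same 3. TNBS in ethanol is a hapten treatment widely used to provoke colitis, and the ethanol enema is its vehicle. The labels do not describe the knockout allele, the sex of the mice or the number of lines, and a pool hides the spread between its 5 mice. Each group having 1 pool, p-values came from limma with treatment and genotype as additive terms, so they measure the spread left over between these 6 pools.

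The unfolded protein response is set off when unfolded chains build up in the ER and draw the chaperone BiP away from membrane sensors. The sensor IRE1 splices Xbp1 mRNA, ATF6 is cut to release a transcription factor, and PERK slows translation while favouring that of Atf4, so that chaperones, disulphide isomerases and ER-associated degradation (ERAD) factors are made. Atf4 and its targets also answer amino acid shortage and other stresses outside the ER, a wider programme called the integrated stress response. In the gut the response is known for its part in goblet cells and other heavily secreting cells, and splicing, cleavage and phosphorylation of the sensors are not seen by probes for mRNA level.

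Promoters of the response carry short elements bound by its transcription factors, and those of 5 members with such an element, whose values are described below, are printed first. RefSeq promoter sequences of build GRCm38.p6, from 250 bases before to 50 bases after the start, were held for 30 members, with 2 for Derl2 and none for Atf6, Creb3l1, Derl1, Ern2, Hyou1 and Manf. They were searched on both strands for the ER stress element (ERSE: CCAAT, 9 bases of any kind, then CCACG), the element ERSE-II (ATTGG, 1 base of any kind, then CCACG), the unfolded protein response element (UPRE, TGACGTGG) and the amino acid response type of element (CARE, TGATGNAAT), and no 2 matches overlapped. ERSE was found in 8 members (Calr, Canx, Creld2, Dnajc3, Hsp90b1, Hspa5, Pdia6 and Syvn1), against 0.119% of all 32851 promoters. ERSE-II was found in Dnajb11 and Herpud1, against 0.0365% of all promoters. The UPRE letters, in 0.676% of all promoters, and the CARE letters, in 0.965%, were in no member's window. CARE was searched with its last base fixed, and other forms of the element were not searched. Letters that differ from CARE in that last base only lie in the windows of Asns, Atf3, Chac1 and Herpud1. UPRE was likewise searched with its last base fixed, and letters that differ from it in that base only lie in the Hspa5 window. The absence of a CARE or UPRE match thus holds for the searched letters alone. Hsp90b1 was the only member with 2 ERSE matches. Each sequence below runs 5′ to 3′ along the gene's strand, with the match in capitals, and a match is a description of letters, not a shown site of binding.
Hspa5: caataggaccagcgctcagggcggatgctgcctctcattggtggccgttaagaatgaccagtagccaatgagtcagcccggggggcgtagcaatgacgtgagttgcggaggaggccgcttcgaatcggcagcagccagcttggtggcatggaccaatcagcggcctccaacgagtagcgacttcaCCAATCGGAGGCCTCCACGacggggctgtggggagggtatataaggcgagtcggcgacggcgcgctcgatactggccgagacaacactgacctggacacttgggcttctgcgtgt
Hsp90b1: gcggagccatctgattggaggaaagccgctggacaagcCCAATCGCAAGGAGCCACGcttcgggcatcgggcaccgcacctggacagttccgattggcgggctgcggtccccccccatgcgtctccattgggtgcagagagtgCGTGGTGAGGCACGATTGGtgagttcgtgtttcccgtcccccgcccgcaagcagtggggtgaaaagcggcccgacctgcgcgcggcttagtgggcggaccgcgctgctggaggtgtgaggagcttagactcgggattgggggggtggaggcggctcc
Creld2: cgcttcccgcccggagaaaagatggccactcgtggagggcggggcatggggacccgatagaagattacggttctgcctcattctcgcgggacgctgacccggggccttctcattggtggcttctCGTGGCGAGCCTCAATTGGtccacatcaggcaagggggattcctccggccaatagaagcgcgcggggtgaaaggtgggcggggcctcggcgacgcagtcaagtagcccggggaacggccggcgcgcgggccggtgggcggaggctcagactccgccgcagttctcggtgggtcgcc
Pdia6: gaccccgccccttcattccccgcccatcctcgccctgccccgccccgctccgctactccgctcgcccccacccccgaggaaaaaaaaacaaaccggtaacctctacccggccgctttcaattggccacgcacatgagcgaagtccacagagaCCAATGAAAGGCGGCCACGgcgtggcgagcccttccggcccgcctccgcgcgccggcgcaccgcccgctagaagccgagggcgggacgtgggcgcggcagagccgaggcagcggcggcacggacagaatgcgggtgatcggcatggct
Herpud1: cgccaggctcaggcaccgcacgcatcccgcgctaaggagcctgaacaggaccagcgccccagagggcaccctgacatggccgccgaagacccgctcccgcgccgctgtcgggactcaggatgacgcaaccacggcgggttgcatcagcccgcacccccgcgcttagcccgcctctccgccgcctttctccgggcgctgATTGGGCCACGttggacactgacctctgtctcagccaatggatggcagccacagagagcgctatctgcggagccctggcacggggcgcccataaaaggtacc

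The Hspa5 promoter lies at chr2:34771840-34772139 on the plus strand, the Hsp90b1 promoter at chr10:86705395-86705694 on the minus strand and the Creld2 promoter at chr15:88819396-88819695 on the plus strand. The Pdia6 promoter lies at chr12:17266339-17266638 and the Herpud1 promoter at chr8:94386179-94386478, both on the plus strand. Counted from the start, the match began at -65 in Hspa5, at -212 and -107 in Hsp90b1, at -126 in Creld2, at -98 in Pdia6 and at -52 in Herpud1. In Creld2 and at -107 in Hsp90b1 the element lay on the opposite strand and so reads in reverse.

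Facts of the whole series that bear on these genes are few. Mean signal per array ran from 225.3 to 276.7, and 11181 to 14363 probes were above background, with the highest of both on the Foxo4_KO TNBS array. The lowest level called above background also differed by array, from log2 5.38 on the Foxo4_KO TNBS array to 5.92 on the WT TNBS array. A signal between these could thus be called on 1 array and not on another. The Foxo4_KO TNBS array correlated with the others at 0.949 to 0.97 over genes, while the other arrays correlated among themselves at 0.974 to 0.986. No array had the Foxo4 probe above background (log2 signal 4.42 to 4.75), so it does not check the genotype labels. By 1 of its 2 probes, the female-specific transcript Xist stood at log2 9.85 and 10.36 in the untreated WT and Foxo4_KO pools. It was at 5.51 to 5.64 in both ethanol pools and the WT TNBS pool, and at 7.51 in the Foxo4_KO TNBS pool. A difference in the sex of the pooled mice thus cannot be told apart from treatment, nor from genotype between the TNBS pools. Several marker lists also differed between pools. Of 6 measured neutrophil markers, untreated, ethanol-treated and TNBS-treated WT mice had 1, 2 and 4 above background and the Foxo4_KO pools 0, 1 and 6. Their summed level was log2 7.48, 8.72 and 9.22 in WT and 7.54, 7.55 and 12.45 in Foxo4_KO pools, with Cxcr2 and Ngp never above background. Paneth cell markers reached 12.61 in the WT TNBS pool and 14.52 in the Foxo4_KO TNBS pool, against 7.26 to 10.29 elsewhere. Smooth muscle markers were higher in the ethanol and TNBS pools of Foxo4_KO mice (14.55 and 14.23) and the WT TNBS pool (13.30) than in the rest (12.18 to 12.22). The summed level of 6 measured plasma cell markers ran from 9.36 to 9.68 in WT and from 10.14 to 10.51 in Foxo4_KO pools. Jchain and Derl3 were never above background. The sum includes Fkbp11, also on the wider folding list described below, at 9.86 in the Foxo4_KO TNBS pool. Against Foxo4_KO ethanol, 3 of the 6 were at least 2-fold lower in that pool and 1 was at least 2-fold higher. All 9 measured colon epithelium markers were above background in every pool, and 8 of them were lowest in the Foxo4_KO TNBS pool, with a summed level of log2 15.36 there against 15.79 to 15.96 elsewhere. Fibroblast markers summed to 11.56 and 11.67 in the ethanol and TNBS pools of Foxo4_KO mice, against 9.89 to 10.64 elsewhere. Monocyte and macrophage markers summed to 10.37 and 10.50 in those pools, against 9.61 to 10.00 elsewhere. All 9 goblet cell markers with a probe were above background in every pool, at a summed log2 level of 15.84 to 16.14. In pooled tissue, fewer cells of a type and less RNA per cell cannot be told apart, and the part of these markers and of Xist in the results below was not tested.

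Across the 6 pools the members varied modestly. The range of a member's log2 signal over the pools had a median of 0.74, from 0.24 to 2.40, and it was under 0.5 for 11 members and over 1 for 8. The Foxo4_KO TNBS pool gave the highest value for 16 of 30 members, against 26.6% of all genes, and the lowest for 6, against 26.0%. The untreated WT pool gave the lowest value for 11 members, against 15.1% of all genes, and the highest for 3, against 19.9%. These counts read signals below background as they stand, and 6 members (Dnajb9, Pdia6, Edem1, Atf6, Trib3 and Chac1) had such a signal in at least 1 pool. Of the 16 highest in the Foxo4_KO TNBS pool, 13 were above background in every pool. Chac1, Asns and Pdia6 were the members whose Foxo4_KO TNBS value stood farthest above their own mean.

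**Figure D1:**
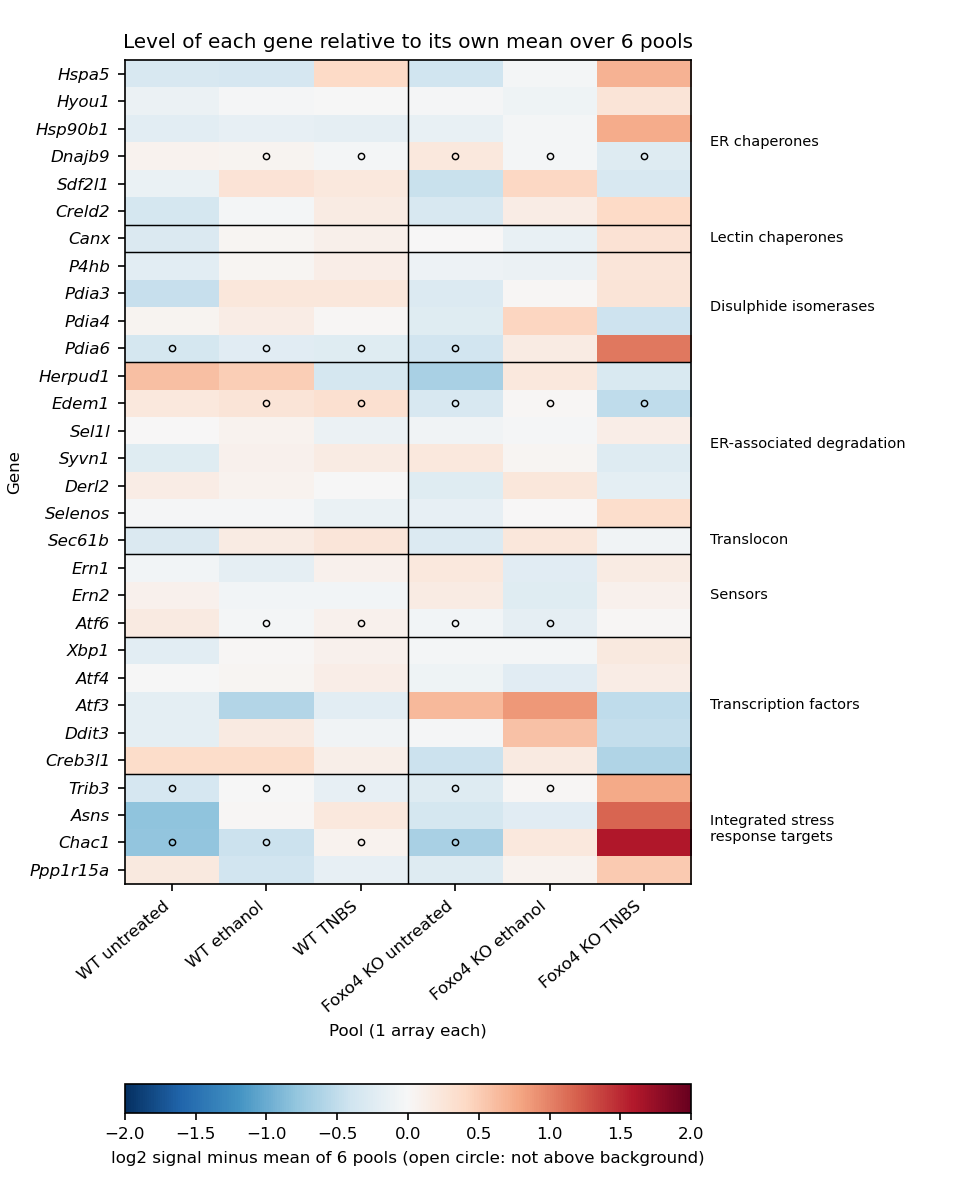
Log2 signal of each measured member minus its own mean over the 6 pools, as colour, with pools in columns, genes in rows grouped by role, and open circles where the gene was not above background. The Foxo4_KO TNBS column holds the highest value of 16 of the 30 genes, most visibly Chac1, Asns, Pdia6, Hsp90b1, Trib3 and Hspa5, while Atf3 was highest in the untreated and ethanol pools of Foxo4_KO mice.

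No member passed the adjusted threshold of 0.05 in any of the 4 comparisons of the additive model, in limma with its usual or with a trended and robust prior. Among all genes 0.134% were called higher and 0% lower in Foxo4_KO than in WT, 0% either way for ethanol against untreated, 0.179% higher and 0% lower for TNBS against ethanol, and 0.324% higher and 0.0112% lower for TNBS against untreated. At an unadjusted p under 0.05, TNBS against untreated counted 6 members higher (Hspa5, Creld2, Pdia3, Pdia6, Asns and Chac1) and 0 lower, with 6.96% and 4.69% of all genes. TNBS against ethanol counted 3 higher (Hspa5, Asns and Chac1) and 2 lower (Ddit3 and Creb3l1), with 3.89% and 2.31% of all genes. Ethanol against untreated counted 4 higher (Sdf2l1, Creld2, Pdia3 and Sec61b) and 0 lower, with 2.21% and 1.91%. Genotype counted 1 higher (Chac1) and 2 lower (Edem1 and Creb3l1), with 6.08% and 4.25%. Both TNBS comparisons use the same TNBS pools and both ethanol comparisons the same ethanol pools, so they are not independent of each other.

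The members' median log2 difference was 0.20 for TNBS against untreated, 0.16 for TNBS against ethanol, 0.14 for ethanol against untreated and 0.04 for genotype. Over all genes the corresponding medians were 0.00, 0.01, 0.00 and -0.03. Scaling the arrays by their medians instead of matching their distributions moved the all-gene median of TNBS against ethanol to 0.18 and that of the members to 0.35. In both TNBS pools at once, 8 members lay above the other 4 pools (Hspa5, Hyou1, Creld2, Canx, P4hb, Xbp1, Atf4 and Asns), against 10.0% of all genes. No member lay below the other 4 pools in both TNBS pools, against 7.66% of all genes.

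Values below are log2 signals in the order untreated, ethanol and TNBS for each genotype, and differences are on the same log2 scale with the standard error (SE) of the additive model. Levels of different genes come from different probes and are not compared.

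Among the ER chaperones, Hspa5 and Creld2 had the clearest difference with TNBS. Hspa5 encodes BiP, the HSP70-type chaperone that binds unfolded chains and holds the sensors inactive. Its signal was 5.95, 5.93 and 6.66 in WT and 5.87, 6.22 and 6.96 in Foxo4_KO pools. Detection p was 0.00561, 0.00686 and 0.00998 in the untreated WT, WT ethanol and untreated Foxo4_KO pools, so these lay near the cut of 0.01. The TNBS pool was the highest of each genotype, and neither TNBS pool overlapped with the other 4. TNBS pools lay 0.90 above untreated pools (SE 0.17, 1.87-fold), which did not pass adjustment over all genes (limma adjusted p = 0.186). Against ethanol the difference was 0.74 in WT and 0.75 in Foxo4_KO mice, so for that comparison Hspa5 gave nearly the same value in both genotypes. Ethanol against untreated was -0.03 in WT and 0.34 in Foxo4_KO mice, so TNBS against untreated was larger in Foxo4_KO mice.

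Creld2, an ER protein that rises with ER stress and assists disulphide formation, was at 8.64, 8.96 and 9.16 in WT and at 8.68, 9.15 and 9.40 in Foxo4_KO pools. In each genotype the ethanol pool lay between the untreated and the TNBS pool. The difference was 0.39 for ethanol against untreated (SE 0.15, limma adjusted p = 0.999) and 0.62 for TNBS against untreated (SE 0.15, limma adjusted p = 0.292).

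Hsp90b1, the HSP90-type chaperone GRP94, was at 10.27, 10.32 and 10.30 in WT pools and at 10.34, 10.44 and 11.23 in Foxo4_KO pools. The Foxo4_KO TNBS pool alone stood apart, 0.93 above the WT TNBS pool, and the other 5 pools lay between 10.27 and 10.44. The additive model, which assumes the same treatment difference in both genotypes, gave 0.46 for TNBS against untreated (SE 0.25, limma adjusted p = 0.544).

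Hyou1, a BiP partner of the HSP110 type, differed little, at 6.08, 6.17 and 6.18 in WT and 6.16, 6.11 and 6.44 in Foxo4_KO pools. Sdf2l1, a partner of the ER J-domain cochaperones, was at 7.40, 7.81 and 7.74 in WT and at 7.08, 7.94 and 7.21 in Foxo4_KO pools. Sdf2l1 was higher in the ethanol than in the untreated pool of both genotypes (0.64, SE 0.21, limma adjusted p = 0.999), and its Foxo4_KO TNBS pool was close to the untreated one. Dnajb9, a J-domain cochaperone of BiP, was above background only in the untreated WT pool, at 5.65. Its signals not above background were 5.63 and 5.55 in the other WT pools and 5.80, 5.54 and 5.32 in Foxo4_KO pools. As a group the 6 measured chaperones had a median of 0.35 for TNBS against untreated, with 5 of 6 higher, and of 0.12 for genotype, with 4 of 6 higher.

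Of the lectin chaperones, which hold glycoproteins while they fold, only Canx was measured, at 7.29, 7.63 and 7.69 in WT and 7.60, 7.44 and 7.87 in Foxo4_KO pools. Its 2 TNBS pools were the highest, with a difference from untreated of 0.34 (SE 0.18, limma adjusted p = 0.54). A second, dimmer Canx probe was above background in only 2 pools, untreated WT and Foxo4_KO ethanol. Its signal was highest in the WT TNBS pool and lowest in the Foxo4_KO TNBS pool (5.27), neither above background.

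The disulphide isomerases, which form and reshuffle disulphide bonds, did not behave alike. Pdia3, which works with the lectin chaperones, was at 9.99, 10.68 and 10.68 in WT and at 10.17, 10.47 and 10.71 in Foxo4_KO pools. Both untreated pools of Pdia3 were the lowest, without overlap with the enema pools. The difference from untreated was 0.50 for ethanol (SE 0.17, limma adjusted p = 0.999) and 0.61 for TNBS (SE 0.17, limma adjusted p = 0.319).

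Pdia6, an isomerase that also acts on the sensors, was above background in only 2 pools, the ethanol and TNBS pools of Foxo4_KO mice, at 5.82 and 6.71. In the WT pools its signal was 5.30, 5.43 and 5.42, and in the untreated Foxo4_KO pool 5.27, none above background. Foxo4_KO exceeded WT at least 1.74-fold in the TNBS pools. This bound sets the measured 6.71 against the lowest level called above background on the WT array, because the measured 5.42 was below it. A second Pdia6 probe was not above background in any pool, at 5.28 in the Foxo4_KO TNBS pool and 5.45 in the untreated Foxo4_KO pool.

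Pdia4, another isomerase of the BiP complex, went another way, at 9.49, 9.58 and 9.46 in WT and 9.19, 9.87 and 9.03 in Foxo4_KO pools. Its Foxo4_KO TNBS pool was the lowest of the 6 and lay 0.84 below the Foxo4_KO ethanol pool. P4hb, the classical protein disulphide isomerase, kept within 12.46 to 12.91 over the pools, highest in both TNBS pools. The 4 isomerases had a median of 0.48 for TNBS against untreated and of 0.01 for genotype.

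**Figure D2:**
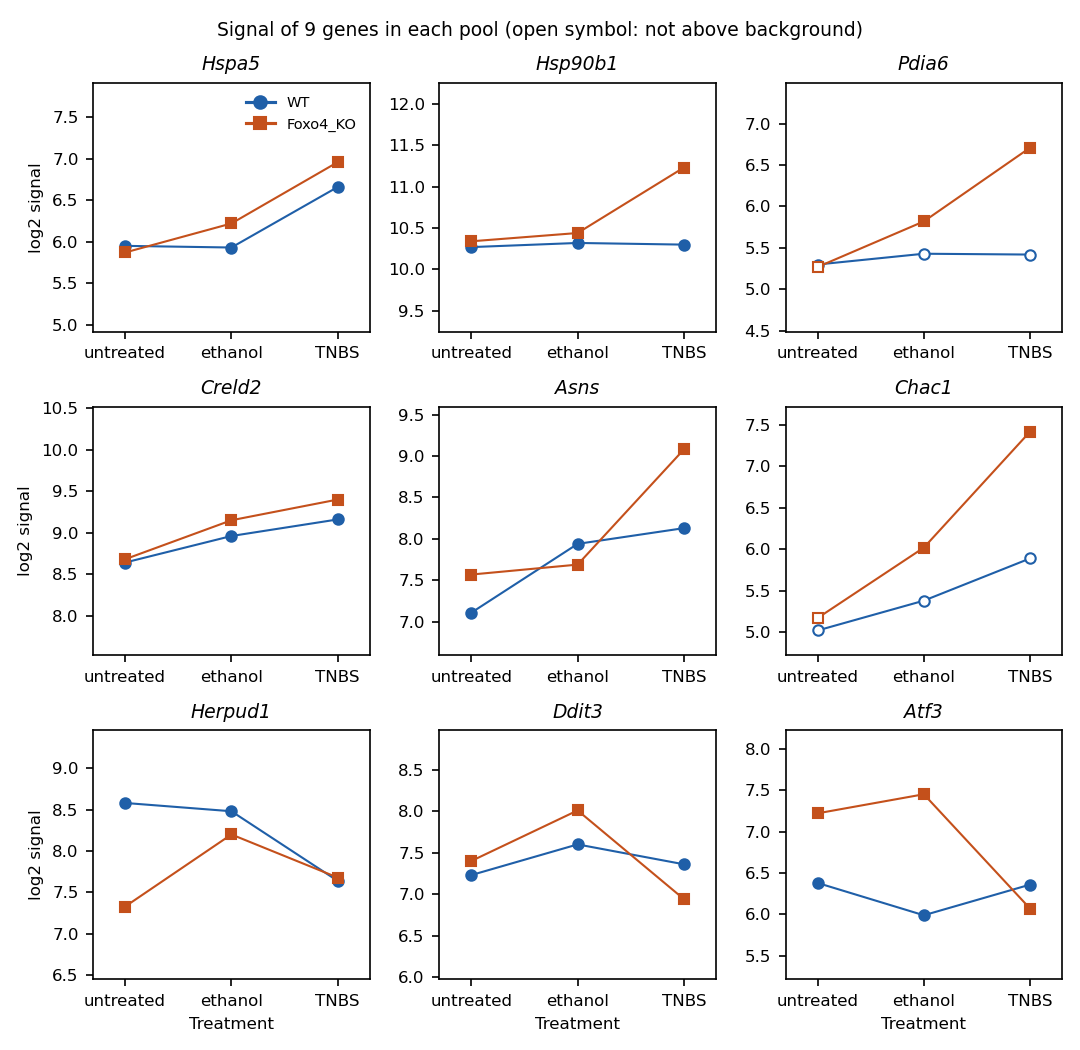
Log2 signal of 9 members by treatment (horizontal axis) in WT (blue circles) and Foxo4_KO (orange squares) mice, 1 pool per point, with open symbols where the gene was not above background. Hspa5 and Creld2 were highest with TNBS in both genotypes, Hsp90b1, Pdia6, Asns and Chac1 stood highest in the Foxo4_KO TNBS pool, Ddit3 was lowest there, and Atf3 was lower there than in either other Foxo4_KO pool.

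Genes of ER-associated degradation, which pulls misfolded chains out of the ER for the proteasome, were not higher with TNBS as a group. The 6 measured had a median of -0.04 for TNBS against untreated, with 2 of 6 higher, and of -0.18 for TNBS against ethanol, with 1 of 6 higher. Herpud1, a membrane scaffold of the degradation complex, was at 8.58, 8.48 and 7.64 in WT and at 7.33, 8.20 and 7.68 in Foxo4_KO pools. Both TNBS pools of Herpud1 lay below their ethanol pool, by 0.84 in WT and by 0.52 in Foxo4_KO mice, and the untreated Foxo4_KO pool was the lowest of all. The additive difference for TNBS against ethanol was -0.68 (SE 0.32, limma adjusted p = 0.784). Untreated Foxo4_KO mice had 1.25 less Herpud1 than untreated WT mice on the log2 scale, the 1 member at least 2-fold lower there among 27 above background in either pool, against 0.594% of all genes, and 0 were 2-fold higher, against 1.15%. Without either untreated pool the genotype difference of Herpud1 was -0.12, against -0.50 with all 6 pools.

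Edem1, a mannosidase-like protein that marks glycoproteins for degradation, was above background only in the untreated WT pool, at 5.71. Its Foxo4_KO signals of 5.18, 5.52 and 4.99 were each below the matched WT signals of 5.71, 5.76 and 5.82, but 5 of the 6 were not above background. The additive genotype difference was -0.54 (SE 0.16, limma adjusted p = 0.336).

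The rest of the degradation machinery was close to level. Sel1l, the adaptor of the ubiquitin ligase, ranged from 8.28 to 8.52. Syvn1, the ligase HRD1 itself, was at 10.02, 10.35 and 10.43 in WT and 10.48, 10.31 and 10.00 in Foxo4_KO pools, so the order of its treatments ran in opposite directions in the 2 genotypes. Derl2, a channel component, ranged from 7.78 to 8.24, and a second Derl2 probe was higher in the WT TNBS than in the WT ethanol pool (7.89 and 7.74), where the first was lower (8.00 and 8.09). Selenos, a selenoprotein that recruits the extraction ATPase, was highest in the Foxo4_KO TNBS pool at 11.07 and ranged from 10.55 to 10.72 elsewhere. A second Selenos probe was also highest there, at 10.17.

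Sec61b, a subunit of the channel through which chains enter the ER, was at 10.17, 10.63 and 10.70 in WT and at 10.19, 10.69 and 10.40 in Foxo4_KO pools. Both untreated pools were lower than the 4 enema pools, and ethanol exceeded untreated by 0.48 (SE 0.17, limma adjusted p = 0.999). The second Sec61b probe gave 9.20, 9.29 and 9.19 in WT and 8.96, 9.27 and 8.65 in Foxo4_KO pools, so there the untreated pools did not lie below the rest.

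The sensors themselves were nearly level. Ern1, which encodes the widely expressed IRE1 alpha, was at 6.60, 6.48 and 6.75 in WT and 6.87, 6.43 and 6.83 in Foxo4_KO pools. Ern2, which encodes the IRE1 beta of gut and airway epithelium, was at 11.82, 11.68 and 11.68 in WT and 11.90, 11.48 and 11.82 in Foxo4_KO pools. For both genes the ethanol pool of Foxo4_KO mice was the lowest, and for Ern1 both ethanol pools lay below the other 4 (ethanol against untreated -0.28, SE 0.16, limma adjusted p = 0.999). Atf6 was above background in 2 pools, untreated WT (5.64) and Foxo4_KO TNBS (5.49), while its WT TNBS signal of 5.56 was not above background.

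Among the transcription factors, Xbp1 and Atf4 differed little, while Atf3, Ddit3 and Creb3l1 were lower in the Foxo4_KO TNBS pool than in the Foxo4_KO ethanol pool. Xbp1, whose spliced form drives chaperone and degradation genes, was at 11.49, 11.73 and 11.79 in WT and 11.66, 11.66 and 11.90 in Foxo4_KO pools. Atf4, the main factor of the integrated stress response, ranged from 8.52 to 8.90, with both TNBS pools at the top (8.89 and 8.90). The probes report total mRNA and so do not show Xbp1 splicing or Atf4 translation.

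Atf3, a factor induced by many stresses, was at 6.38, 5.99 and 6.36 in WT and at 7.22, 7.45 and 6.07 in Foxo4_KO pools. The untreated and ethanol pools of Foxo4_KO mice stood above the other 4 pools, 0.84 and 1.46 above the matched WT pools, and the TNBS pools differed by -0.29. In the ethanol pools Atf3 was the 1 member at least 2-fold higher in Foxo4_KO among 26 above background in either pool, against 4.14% of all genes, and 0 were 2-fold lower, against 0.650%. The additive genotype difference was 0.67 (SE 0.33, limma adjusted p = 0.565).

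Ddit3, which encodes the pro-apoptotic factor CHOP, was at 7.23, 7.60 and 7.36 in WT and at 7.40, 8.01 and 6.94 in Foxo4_KO pools. In both genotypes the ethanol pool was the highest, and TNBS lay below ethanol by 0.24 in WT and by 1.08 in Foxo4_KO mice. The additive difference was -0.66 (SE 0.23, limma adjusted p = 0.775). Creb3l1, the membrane-bound factor OASIS, which has a role in goblet cell maturation in mice, was at 7.23, 7.22 and 6.97 in WT and 6.43, 7.04 and 6.26 in Foxo4_KO pools. Creb3l1 was lower in Foxo4_KO in each of the 3 treatments, with an additive difference of -0.56 (SE 0.17, limma adjusted p = 0.341).

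The targets of the integrated stress response held the widest differences of the list. Their median was 0.93 for TNBS against untreated and 0.37 for genotype, with 4 of 4 higher in each. Only Asns and Ppp1r15a were above background in every pool, and in the WT pools Ppp1r15a was lower with TNBS (6.18) than untreated (6.54). Atf3 and Ddit3, grouped here with the transcription factors, differed by -0.58 and -0.17 for TNBS against untreated and by 0.67 and 0.06 for genotype. Chac1 encodes an enzyme that degrades glutathione and is induced through Atf4. It was above background in the ethanol and TNBS pools of Foxo4_KO mice, at 6.02 and 7.42, and not above background at 5.17 in their untreated pool or at 5.02, 5.38 and 5.89 in the WT pools. In the TNBS pools Foxo4_KO exceeded WT at least 2.84-fold, again against the lowest level called above background on the WT array. The additive differences, which include signals below background, were 1.56 for TNBS against untreated (SE 0.33, limma adjusted p = 0.214) and 0.78 for genotype (SE 0.27, limma adjusted p = 0.403).

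Asns, the asparagine synthetase, was at 7.11, 7.94 and 8.13 in WT and at 7.57, 7.69 and 9.08 in Foxo4_KO pools. The TNBS pool was the highest in each genotype, and the Foxo4_KO TNBS pool stood 0.94 above the WT one. TNBS exceeded untreated by 1.26 (SE 0.29, 2.40-fold, limma adjusted p = 0.257). Without the Foxo4_KO TNBS pool this difference was 0.85, that of Chac1 0.99 and that of Hspa5 0.80.

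Trib3, a pseudokinase induced by Atf4 and CHOP, was above background only in the Foxo4_KO TNBS pool, at 5.61. Its signals elsewhere ran from 4.51 to 4.87. Other Trib3 probes were not above background in any pool and read 4.45 in the Foxo4_KO TNBS pool. The signal of 5.61 was below the lowest level called above background on the WT TNBS array (5.92), so no bound could be set between the TNBS pools. Ppp1r15a, which encodes GADD34, the subunit that directs a phosphatase back to the translation factor, was at 6.54, 5.96 and 6.18 in WT and at 6.08, 6.41 and 6.87 in Foxo4_KO pools. The Foxo4_KO TNBS pool of Ppp1r15a was the highest, and the treatments ran in no common order in the 2 genotypes.

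Within each genotype, TNBS against ethanol had a member median of 0.03 in WT and 0.25 in Foxo4_KO mice, against 0.00 and 0.02 over all genes. Higher in both genotypes were 12 members, against 27.5% of all genes, and lower in both 7, against 25.6%, and 10 and 6 of these were above background in all 4 pools compared. In Foxo4_KO mice 2 members were at least 2-fold higher (Chac1 by 1.40 and Asns by 1.39, log2), against 2.52% of all genes, and 2 were at least 2-fold lower (Atf3 by 1.37 and Ddit3 by 1.08), against 1.61%. In WT mice no member was 2-fold apart, against 1.27% of all genes higher and 0.134% lower, and the largest differences were those of Herpud1 and Hspa5. Whether the response differs between genotypes could not be tested with 1 pool per group. In the Foxo4_KO TNBS pool all 6 measured neutrophil markers and all 5 pancreatic acinar markers were above background, against at most 4 of each in any other pool. The summed level of the acinar markers was nonetheless lowest there (log2 12.59, against 12.74 to 13.92 elsewhere), with 3 of the 5 markers at their highest in that pool and 1 at its lowest.

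**Figure D3:**
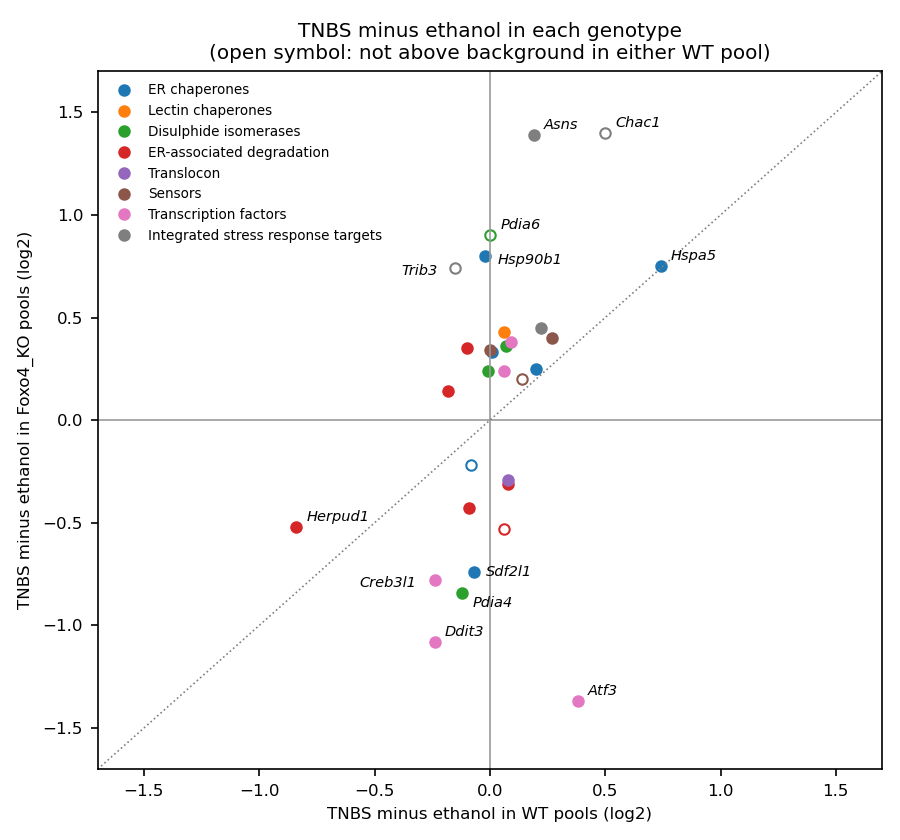
Log2 difference of TNBS minus ethanol in WT pools (horizontal axis) and in Foxo4_KO pools (vertical axis) for the 30 measured members, coloured by role, with a dotted line where both are equal and open symbols where neither WT pool was above background. Hspa5 lies on the line (0.74 and 0.75), Asns, Chac1, Pdia6 and Hsp90b1 lie above it, and Atf3 (0.38 and -1.37), Ddit3 and Creb3l1 lie below.

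Between genotypes, the member median was 0.05 without treatment, -0.05 with ethanol and 0.10 with TNBS, against -0.04, -0.04 and 0.01 over all genes. In the TNBS pools the signals of 2 members, Chac1 and Pdia6, were at least 2-fold higher in Foxo4_KO, among 28 above background in either pool and against 3.24% of all genes counted the same way, and 0 were 2-fold lower, against 1.23%. Both were below background in the WT TNBS pool, and only the bound of Chac1 (at least 2.84-fold) exceeds 2-fold, that of Pdia6 being at least 1.74-fold. Higher in Foxo4_KO in all 3 treatments were 4 members (Hsp90b1, Creld2, Trib3 and Chac1), against 13.3% of all genes, and lower in all 3 were 3 (Edem1, Atf6 and Creb3l1), against 18.7%. Only Hsp90b1, Creld2 and Creb3l1 of these were above background in all 6 pools, so the order of the other 4 rests in part on signals below background. The summed plasma cell markers, which include the folding gene Fkbp11, were higher in Foxo4_KO in all 3 treatments as well.

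For ethanol against untreated, the member median was 0.07 in WT and 0.25 in Foxo4_KO mice, and 13 members were higher in both genotypes, against 25.4% of all genes, with 4 lower in both, against 27.1%. Of these 9 and 2 were above background in all 4 pools compared. No member was 2-fold apart in either genotype, where 0.731% of all genes in WT and 1.69% in Foxo4_KO mice were at least 2-fold higher and 0.681% and 0.290% lower.

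Members with an ERSE or ERSE-II match and those without one overlapped widely. Of 10 members with a match 7 were measured, with a median of 0.46 for TNBS against untreated, from -0.30 in Herpud1 to 0.90 in Hspa5, and 5 of 7 were higher. Of 20 members whose promoter held no match 19 were measured, with a median of 0.21, from -0.58 in Atf3 to 1.56 in Chac1, and 13 of 19 were higher. Hspa5, Creld2, Hsp90b1 and Pdia6, printed above, were on the higher side and Herpud1 on the lower side. The value of Herpud1 averages a TNBS signal below untreated in WT and one above untreated in Foxo4_KO mice. Of the measured members with a match that were not printed, Canx differed by 0.34 and Syvn1 by -0.04.

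Other genes of the pathway were read from lists of neighbouring functions, and none of their measured genes passed the adjusted threshold in limma in any of the 4 comparisons. The 24 measured genes of the wider integrated stress response had a median of 0.30 for TNBS against untreated, with 19 higher and 6 at an unadjusted p under 0.05, all higher, against 6.96% of all genes higher and 4.69% lower. Psat1, an enzyme of serine synthesis, was at 5.44, 6.62 and 6.97 in WT and 6.18, 6.25 and 7.17 in Foxo4_KO pools. Its difference of 1.26 (SE 0.27, limma adjusted p = 0.223) includes the untreated WT signal, which was not above background. Mthfd2, a mitochondrial enzyme of folate metabolism, was at 7.19, 7.75 and 8.16 in WT and 7.75, 7.94 and 8.59 in Foxo4_KO pools and differed by 0.90 (SE 0.17, limma adjusted p = 0.174). Cebpb, a partner of Atf4 that is also induced by inflammation, differed by 0.93 (SE 0.23, limma adjusted p = 0.287).

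The 24 measured genes of wider folding and redox had a median of 0.14 for the same comparison, with 1 at an unadjusted p under 0.05, higher, against 6.96% of all genes. That gene was Fkbp11, a prolyl isomerase abundant in secretory cells and also on the plasma cell list, at 7.76, 8.68 and 8.88 in WT and 8.46, 8.79 and 9.86 in Foxo4_KO pools, a difference of 1.26 (SE 0.24, limma adjusted p = 0.178). Genes of translocation and glycosylation (21 measured) had a median of 0.25, with 18 higher and 3 at an unadjusted p under 0.05, all higher, against the same 6.96% of all genes. Among them Ssr2 and Ssr3, subunits of the translocon-associated complex, differed by 0.57 (SE 0.17) and 0.72 (SE 0.24), the latter with the untreated Foxo4_KO signal not above background. The median was 0.04 for ER to Golgi transport (18 measured) and -0.06 for the wider degradation list (10 measured). Other sensors and processing proteases (8 measured) had a median of 0.13, against 0.00 over all genes. At an unadjusted limma p under 0.05, ER to Golgi transport had 2 higher (Kdelr3 and Sec13) and 1 lower (Tmed2). The other 2 of these lists had 0 either way, against 6.96% of all genes higher and 4.69% lower. The 7 measured heat shock genes of cytosol and mitochondria, listed for contrast, had a median of 0.34, led by Hspb1 with 2.10 (SE 0.50, limma adjusted p = 0.271), a gene also abundant in smooth muscle.

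**Figure D4:**
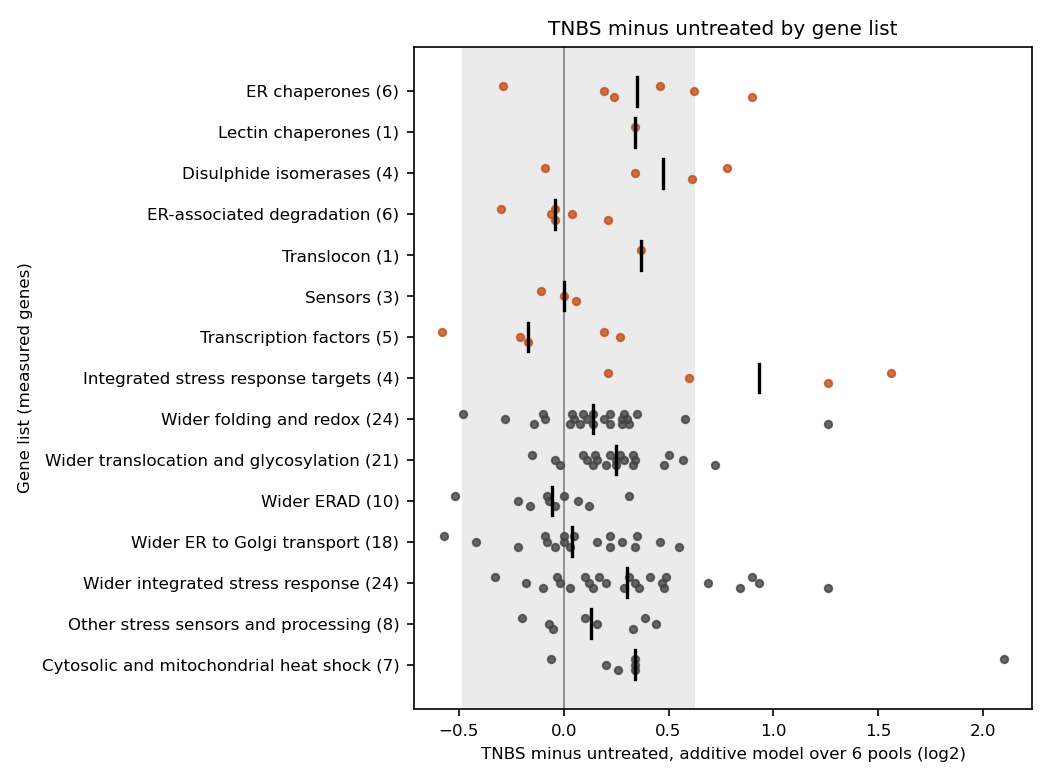
Log2 difference of TNBS minus untreated from the additive model for each measured gene (points), by list (rows, with the number of measured genes), members in orange and other lists in grey, with the list median as a black bar. The shaded band runs from -0.48 to 0.62, which leaves out the outermost 5% of all genes on each side, and most points lie within it, with Chac1, Asns, Psat1, Fkbp11 and Hspb1 farthest to the right.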

How the data were processed

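RNA of 6 colonic mucosa pools was measured on Illumina bead arrays, 1 per genotype and treatment. The authors' unnormalized table held mean bead intensity per probe, without background subtraction, and a detection score, named a p-value per the file headers, that grew with the signal (Spearman 0.997 to 0.998 over probes) and was taken as 1 minus p. Normalized intensity values with probe identifiers came from the authors' other table, how these were made being not given in the sources used here. Both were joined by signal profile (within 0.05 log2, the next match at least 2 times as far), which placed 46602 of 46632 probes (99.94%), and 7963 of 8038 targets with an Entrez number matched (99.1%, against 1 after shuffling). Symbols came from the platform annotation (29976 probes with 1 symbol, 10 with several, 16646 with none).

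Signals were processed with neqc in limma 3.58.1 (R 4.3.3, offset 16) to the log2 scale, with the deposited detection values marking background. A gene was its brightest probe above background on at least 1 array. The additive model of treatment and genotype left 2 residual degrees of freedom beside 3.78 prior ones (prior SD 0.183, median residual SD 0.171). Benjamini-Hochberg adjustment ran over 8950 genes, two-sided, at 0.05. Precision is limited by having 6 arrays. Single pools were compared by value alone, counting differences of at least 2-fold. Residuals include genotype-by-treatment differences. Where 1 pool was below background, the bound used the higher of that probe's signal and the lowest signal above background on that array.

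The model and the join were tested on simulated data. All members are named, and of the other lists at most 3 genes per comparison with the largest difference. The members and lists were chosen with earlier results of these data known. Alternatives covered normalization, background, offset, filter, probes, prior and single pools. Promoters were RefSeq's. Other steps used scipy 1.17.1, pandas 2.3.3, numpy 2.4.6 and matplotlib 3.10.9 in Python 3.11.15.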

Additional observations from a re-analysis of the deposited data

Results flagged for a closer look

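TNBS against ethanol and ethanol against untreated were screened for members that differed in opposite directions in the 2 genotypes. This held for 3 members by more than the median residual SD of 0.171 each way. With 1 pool per group the difference itself was not tested. TNBS against untreated was not screened. There Herpud1 was lower with TNBS in WT (8.58 untreated, 7.64 TNBS) and higher in Foxo4_KO mice (7.33 and 7.68). Syvn1 and Ppp1r15a also ran in opposite directions there. Atf3 with TNBS against ethanol was 0.38 in WT and -1.37 in Foxo4_KO mice, a difference between genotypes of -1.75 (log2). Atf3 with ethanol against untreated was -0.39 in WT and 0.22 in Foxo4_KO mice, a difference of 0.61. Ppp1r15a with ethanol against untreated was -0.58 in WT and 0.33 in Foxo4_KO mice, a difference of 0.91. Syvn1 with ethanol against untreated was 0.34 in WT and -0.18 in Foxo4_KO mice, a difference of -0.52.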

How the results depend on the processing

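Of 582 values recomputed under the alternatives 570 kept their direction and their side of the threshold or moved by less than the spread. Median scaling after normexp, which also shifts all genes, gave member medians of 0.35 for TNBS against ethanol (0.18 over all genes), 0.46 for Foxo4_KO against WT with TNBS (0.37 over all genes) and 0.60 for TNBS against ethanol in Foxo4_KO mice (0.33 over all genes). Under it 2 members passed for TNBS against untreated, Asns (limma adjusted p = 0.045) and Chac1 (limma adjusted p = 0.0212), with 121 genes called in all against 30. In no other setting was a member called in any comparison. The number of all genes called ran from 1 to 124 for genotype with all pools, 0 to 3 for ethanol against untreated and 0 to 43 for TNBS against ethanol, and it was 0 for genotype without any 1 pool.

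Leaving out each pool in turn, the member median ran from 0.06 to 0.32 for ethanol against untreated, highest without the untreated WT pool, from -0.01 to 0.11 for genotype, from 0.05 to 0.25 for TNBS against ethanol and from 0.15 to 0.24 for TNBS against untreated. Among single genes, ethanol against untreated ran from -0.01 (without the WT ethanol pool) to 0.95 for Asns. TNBS against ethanol ran from -1.22 to 0.22 for Atf3, turning positive without the Foxo4_KO ethanol pool (0.09) or the Foxo4_KO TNBS pool (0.22), and from -0.11 (without the Foxo4_KO TNBS pool) to 1.00 for Pdia6. TNBS against untreated ran from -1.30 to 0.14 for Atf3, positive without the Foxo4_KO TNBS pool. The causes were not tested. The additive model already compares genotypes within each treatment. No paired analysis was possible because each group holds 1 pool, so there was no second replicate number to enter as a block beside treatment and genotype. Dim members (Dnajb9, Edem1, Atf6, Trib3, Chac1 and Pdia6) are limited by signal over background, and pooling hides the spread between mice. Hspa5 was above background in every pool but near the limit in its untreated pools and the WT ethanol pool.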
